A study of Rattus norvegicus with 96 samples.

Results

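Gabrg1 encodes the gamma 1 subunit of the GABA-A receptor. It was selected on its condition means: its mean signal was lower in non-dependent than in both naive and dependent rats in each of 8 brain regions. It is 1 of 14218 genes with a probe set annotated to them alone. It had 1 such probe set on the Affymetrix RN230.2 array, measured once for each region, condition and replicate number. The RNA came from microdissected tissue of adult male Wistar rats. Dependent rats self-administered 10% alcohol for 4 weeks and were then exposed to intermittent ethanol vapor for 4 weeks. Non-dependent rats self-administered the same alcohol without vapor, and age-matched naive rats had no alcohol. Brains were taken in protracted abstinence, 3 weeks after the vapor ended. The 96 arrays hold 4 replicates for each of 3 conditions in each region and came from 4 rats per group, so the 8 regions share their animals and are not 8 separate experiments. The labels do not say which arrays share a rat. 4 arrays were left out (CeA non-dependent 2, BLA non-dependent 3, VTA non-dependent 2 and vBNST dependent 1), which left 31 dependent, 29 non-dependent and 32 naive arrays.

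The GABA-A receptor is a chloride channel of 5 subunits, most often alpha, beta and gamma subunits together, and it carries most fast inhibition in the brain. The gamma subunit lies at the site where benzodiazepines bind, next to an alpha subunit, and also takes part in placing the receptor at synapses. Gamma 1 is sparse in cortex, is known from the amygdala, the bed nucleus of the stria terminalis and other basal forebrain sites, and is also found in astrocytes. Receptors with gamma 1 respond weakly to many benzodiazepines. Ethanol acts on GABA-A receptors, and the gene cluster that holds Gabrg1 has been studied in human alcohol dependence.

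In the rat RefSeq annotation, Gabrg1 lies on chromosome 14 beside Gabra2, its nearest protein-coding neighbour, followed on that side by Cox7b2, Gabra4 and Gabrb1. Its promoter is shown because Gabrg1 is listed among the targets inferred in the study's network for Nr3c1, the gene of the glucocorticoid receptor. The stretch below runs from 250 bases before the start of the gene to 50 bases after it, on the plus strand of GRCr8 at chr14:37750042-37750341, as RefSeq gives it. Capitals mark matches to the CCAAT box, a common promoter element.

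Gabrg1 promoter: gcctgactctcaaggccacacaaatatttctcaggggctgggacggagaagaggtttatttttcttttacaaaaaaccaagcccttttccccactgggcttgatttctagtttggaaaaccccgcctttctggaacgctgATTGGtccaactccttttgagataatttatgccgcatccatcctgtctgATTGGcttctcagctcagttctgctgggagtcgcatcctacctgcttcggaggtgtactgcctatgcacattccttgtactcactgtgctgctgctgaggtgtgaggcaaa

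Both matches read CCAAT on the minus strand, and they begin at positions -110 and -61 from the start of the gene. Of 33469 rat promoters of this length, 37.5% held CCAAT on either strand at least once and 11.2% held it 2 times or more. The half-site of the glucocorticoid response element, AGAACA, was in 20.7% of them on either strand, and the letters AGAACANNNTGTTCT of a full site were in 0.0149%. Neither was within these 300 bases of Gabrg1, which says nothing of the receptor at other sites.

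The 4 arrays left out stood apart from the other 92. Their 18 hybridization control probe sets averaged 10.8 to 14.3 on the log2 scale, against 7.44 to 10.4 on the 92 arrays, and their highest correlation with any other array was 0.374 to 0.960, against at least 0.990. Gabrg1 was 8.44 on the vBNST dependent array left out, and 6.45, 4.97 and 3.12 on the CeA, BLA and VTA non-dependent arrays. With them, dependent minus non-dependent was 0.67 in the vBNST, 1.03 in the CeA, 0.71 in the BLA and 1.41 in the VTA, against 0.36, 1.04, 0.59 and 1.08 without them, and dependent minus naive in the vBNST was -0.30, against -0.61. Marker genes were set beside the VTA and mPFC labels. Th and Slc6a3, which mark dopamine neurons, had their highest naive means in the VTA, at 9.24 and 10.43. Slc17a7, the glutamate transporter of cortical neurons, had its highest in the mPFC, at 11.75. These means do not check the labels of the other regions or of single arrays. Gad1 and Gad2, genes of GABA synthesis, averaged 9.67 on NAcSh naive array 2, which was kept, against 10.6 to 10.8 on the other naive NAcSh arrays. Its highest correlation with another array, 0.990, was the lowest of the 92. All values are log2 signals, in which 1 unit is a 2-fold change. In whole tissue, fewer cells of a type and less RNA per cell cannot be told apart.

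Gabrg1 was strongest in the extended amygdala of naive rats. Its mean was 8.01 ± 0.91 in the dorsolateral bed nucleus of the stria terminalis (dlBNST), 7.79 ± 1.06 in the ventral bed nucleus (vBNST) and 7.45 ± 0.75 in the central nucleus of the amygdala (CeA). A middle level was measured in the basolateral amygdala (BLA, 6.16 ± 0.52), the core of the nucleus accumbens (NAcC, 6.07 ± 1.04) and its shell (NAcSh, 5.98 ± 0.24). The lowest means were 5.22 ± 0.52 in the ventral tegmental area (VTA) and 4.41 ± 0.15 in the medial prefrontal cortex (mPFC), each with SD and n = 4. Among the 14218 genes, Gabrg1 ranked at the 65.0th to 77.6th percentile of the naive dlBNST arrays but at the 39.9th to 44.0th percentile of the naive mPFC arrays.

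**Figure D1:**
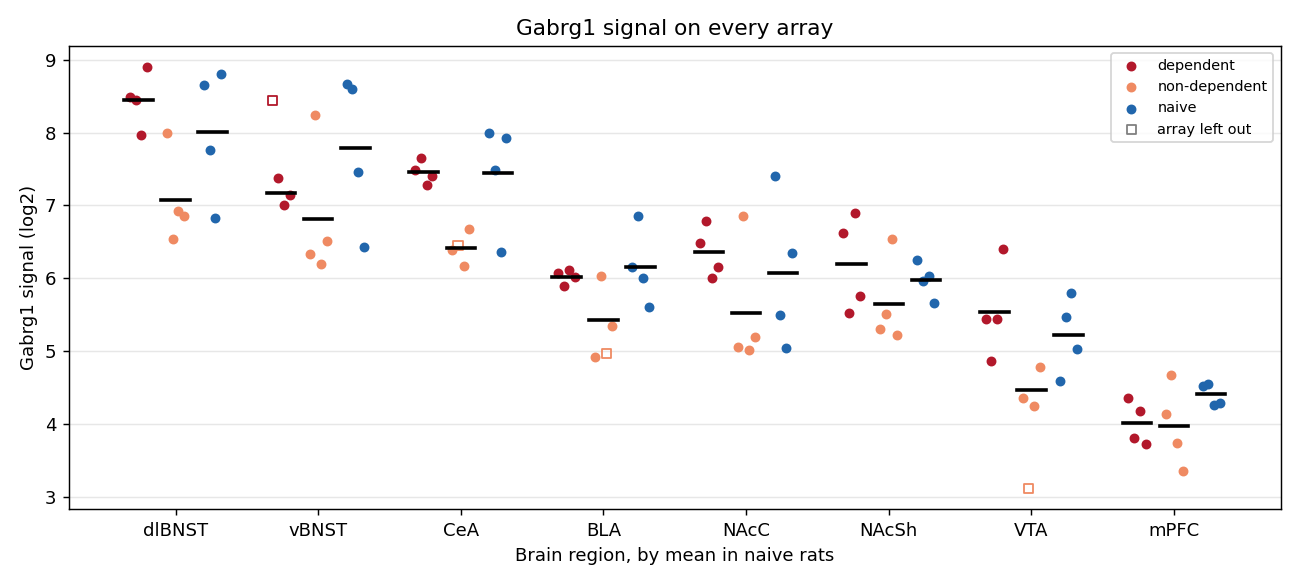
Gabrg1 signal (log2) on every array by brain region, with dependent, non-dependent and naive rats from left to right in each region. Filled points are single arrays, black bars are means of the arrays used, and open squares are the 4 arrays left out. The signal falls across the plot, with naive means of 8.01 in the dlBNST and 4.41 in the mPFC, and the lowest of the arrays used is a non-dependent one in 8 of 8 regions.

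This order of regions was not used to choose the gene, and it was tested with limma in the 32 naive arrays. The fit took the arrays as independent, although the regions share their rats. With p-values adjusted over 8792 genes for each pair of regions, 18 of 28 pairs differed. The brain regions differ in many genes, and over the 28 pairs 49.8% of gene tests were called, 13.1 to 76.9% in a pair. The dlBNST, vBNST and CeA were each higher than the NAcC, the NAcSh, the BLA, the VTA and the mPFC, and the mPFC was lower than the 6 regions other than the VTA. Of the 7 steps between neighbours in the order, the step between the CeA and the BLA passed the test, at 1.29 ± 0.48 (SE, adjusted p = 0.0373 with limma, where 32.9% of genes were called). The naive arrays of these regions still overlapped, at 6.37 to 8.00 in the CeA and 5.61 to 6.85 in the BLA, and the call was lost without naive replicate 1, 2 or 4, at adjusted p = 0.121, 0.0652 and 0.198. The largest step among the others was between the VTA and the mPFC, at 0.81 with a 95% interval of -0.16 to 1.79 (limma adjusted p = 0.120). The dlBNST and vBNST differed by 0.22, with an interval of -0.75 to 1.20. The dlBNST had the highest and the mPFC the lowest mean in dependent and in non-dependent rats too.

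The condition means, which chose the gene, are given as a description. Averaged over the 8 regional means, Gabrg1 was 6.40 in dependent rats, 5.67 in non-dependent rats and 6.39 in naive rats. The non-dependent mean was lowest in 8 of 8 regions for 8 of 7714 genes that passed the filter throughout (0.104%), and it was highest in 8 of 8 regions for another 8 genes (0.104%). The other 7 genes with the lowest non-dependent mean were Ccnd2, Dnal1, Kcna2, RT1-CE12, Emcn, Kat6b and Cops9, named here after their values were seen. The mean gap between the non-dependent mean and the lower of the other means was 0.57 for Gabrg1 and 0.37 for Ccnd2, the next.

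The gap was widest in the dlBNST and the CeA. In the dlBNST, Gabrg1 was 8.48, 8.45, 7.97 and 8.90 on the dependent arrays, 7.99, 6.54, 6.92 and 6.85 on the non-dependent arrays, and 8.65, 7.76, 6.83 and 8.80 on the naive arrays. The dependent mean was 1.38 ± 0.41 above the non-dependent mean (SE), and 1 non-dependent array lay just above the lowest dependent array. In the CeA, the values were 7.49, 7.65, 7.28 and 7.41 in dependent rats, 6.39, 6.17 and 6.67 in non-dependent rats, and 8.00, 7.49, 6.37 and 7.93 in naive rats. The dependent and non-dependent CeA arrays did not overlap and their means differed by 1.04 ± 0.31, whereas 1 naive array lay among the non-dependent ones. A separation of every dependent from every non-dependent array in this direction was met by 2.11% of genes in the CeA, and nothing is read from it for a gene chosen on these means.

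Markers of other cell types in the same CeA arrays are given beside these values, and none passed adjustment in any comparison of conditions. The mean of 14 astrocyte genes was 10.4 to 10.6 in dependent and 10.4 to 10.6 in non-dependent rats, against 10.7 to 10.8 in naive rats, without overlap with the naive arrays. At an unadjusted p under 0.05, 4 of 13 tested astrocyte markers were lower in non-dependent than in naive CeA (3.7% of all genes were) and none was higher. Among them was Agt, angiotensinogen, at 7.50 in non-dependent and 8.34 in naive rats. The mean of 11 oligodendrocyte genes was 7.71 to 8.10 in dependent and 8.05 to 8.28 in non-dependent rats, against 8.26 to 8.46 in naive rats, and 9 of 10 tested were lower in dependent than in naive rats at an unadjusted p under 0.05 (4.53% of all genes were). The mean of 10 microglia genes, 5 of them tested, was 5.03 to 5.20 in dependent, 5.09 to 5.25 in non-dependent and 5.26 to 5.39 in naive rats. That of 10 endothelial and mural genes, 6 of them tested, was 5.86 to 6.15 in dependent, 5.90 to 5.94 in non-dependent and 6.01 to 6.17 in naive rats. In both, every non-dependent array was below every naive array. Every dependent array was too for the microglia genes, but not for the endothelial and mural genes. The oligodendrocyte means of non-dependent and naive rats overlapped. So did those of oligodendrocyte precursor, choroid plexus and ependyma, GABAergic, glutamatergic and dopamine neuron markers. The share of all genes with such a separation from naive CeA is not given, so nothing is read from it. The signal of the 3' end of beta-actin minus that of its 5' end, which is larger where RNA is less intact, was 6.55 to 7.45 in dependent, 7.14 to 7.50 in non-dependent and 6.22 to 7.04 in naive CeA. Gabrg1 averaged 7.46 in dependent and 7.45 in naive CeA. The part of cell types and of RNA quality in the CeA values was not tested.

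The vBNST and the VTA also had their lowest mean in non-dependent rats, with more overlap in the vBNST. In the vBNST, Gabrg1 was 7.37, 7.01 and 7.14 in dependent rats, 6.34, 8.23, 6.20 and 6.51 in non-dependent rats, and 8.67, 8.60, 7.46 and 6.43 in naive rats. The non-dependent mean was 0.97 ± 0.50 below the naive mean, and 1 non-dependent array was above the 3 dependent ones. In the VTA, the values were 5.45, 4.87, 5.44 and 6.41 in dependent rats, 4.35, 4.25 and 4.79 in non-dependent rats, and 4.60, 5.47, 5.80 and 5.03 in naive rats. The dependent and non-dependent VTA arrays did not overlap, with a difference of 1.08 ± 0.35, a separation met by 7.87% of genes in the VTA, from which nothing is read either.

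In the nucleus accumbens and the BLA the conditions overlapped. Gabrg1 in the NAcC was 6.49, 6.79, 6.01 and 6.16 in dependent rats, 5.06, 6.86, 5.01 and 5.19 in non-dependent rats, and 7.40, 5.50, 5.05 and 6.34 in naive rats. In the NAcSh it was 6.63, 5.53, 6.90 and 5.76 in dependent rats, 5.30, 5.51, 6.54 and 5.22 in non-dependent rats, and 6.25, 5.96, 6.04 and 5.66 in naive rats. In each accumbens region 3 of 4 non-dependent arrays were below every dependent array and the remaining one was within or above the dependent range. In the BLA the values were 6.07, 5.89, 6.11 and 6.02 in dependent rats, 4.92, 6.03 and 5.35 in non-dependent rats, and 6.15, 6.85, 6.01 and 5.61 in naive rats. The dependent BLA arrays spanned 0.22, the narrowest range of the groups.

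In the mPFC, Gabrg1 lay at the mean signal of 4 above which genes were tested, with means of 4.02 in dependent, 3.98 in non-dependent and 4.41 in naive rats, so its differences there are those of a dim signal. Gabrg1 was 4.36, 3.81, 4.19 and 3.74 in dependent rats, 4.14, 4.68, 3.74 and 3.36 in non-dependent rats, and 4.53, 4.56, 4.26 and 4.29 in naive rats. The dependent mean was 0.043 ± 0.24 above the non-dependent mean, which is the smallest margin by which a region met the rule. It turned negative without dependent replicate 1 or 3, at -0.070 and -0.011, and without non-dependent replicate 3 or 4, at -0.037 and -0.16. The hybridization controls of the mPFC were 9.47 to 9.81 in dependent, 10.1 to 10.3 in non-dependent and 9.13 to 10.0 in naive rats, and their part in these values was not tested.

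Single arrays carry some of these differences. In the NAcC, non-dependent minus naive was -0.54, and it was -0.097 without naive replicate 1, -0.88 without naive replicate 3 and -0.98 without non-dependent replicate 2. In the vBNST, dependent minus non-dependent was 0.36, and it was 0.83 without non-dependent replicate 2 and 0.20 and 0.15 without non-dependent replicate 1 and 3. Across the 8 regions and the 92 arrays left out in turn, non-dependent minus naive stayed below 0. The gene was chosen for this sign, so nothing is read from it.

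Over the regions, 23 of 29 non-dependent arrays were below the median of their region, compared with 11 of 31 dependent and 10 of 32 naive arrays. This too largely follows from how Gabrg1 was chosen. The regions share their rats, and the share of all genes with such counts is not given. The lowest array of the region was a non-dependent one in 8 of 8 regions, which held for 0.0648% of genes and largely restates how Gabrg1 was chosen. On average, the non-dependent arrays numbered 2 differed from the others of their condition. They averaged 0.13 above the mean of their region over 6 regions and were the highest non-dependent array in 4 of them. Those numbered 1, 3 and 4 averaged -0.61, -0.66 and -0.68. In the dlBNST, number 2 was instead the lowest non-dependent array, at 6.54. The naive arrays differed by number too: those numbered 1 averaged 0.61 above the mean of their region and those numbered 3 averaged -0.20. Whether same-numbered arrays came from 1 rat is not given.

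**Figure D2:**
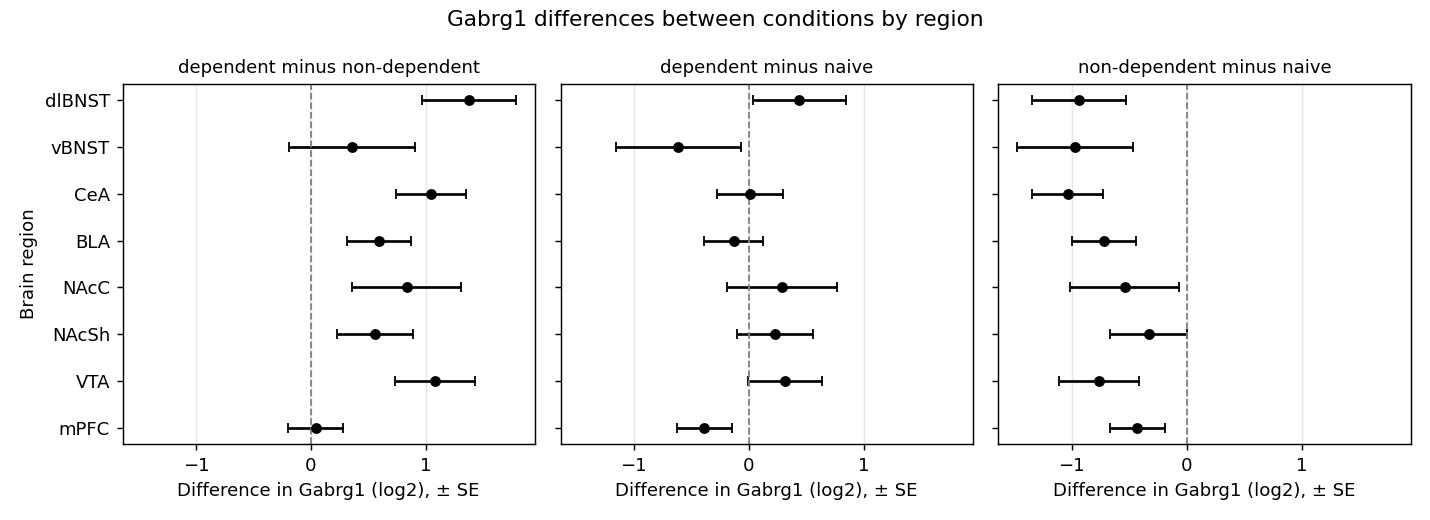
Differences in Gabrg1 between condition means (log2, horizontal axis) by brain region (vertical axis, in the order of the naive means), with bars of 1 SE. Dependent minus non-dependent is above 0 and non-dependent minus naive is below 0 in 8 of 8 regions, as the choice of the gene requires, and dependent minus naive lies on both sides of 0, between -0.61 and 0.44.

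The comparison of dependent with naive rats was not used to choose the gene. Gabrg1 did not pass the test in any region, with adjusted p between 0.442 and 0.994 in limma and a smallest unadjusted p of 0.131. Few genes did: 0.103% were called in the dlBNST, 0.0556% in the mPFC and 0 in each of the other 6 regions, where the smallest unadjusted p of Gabrg1 was 0.282. The difference was above 0 in 5 regions and below 0 in 3. The dlBNST had 0.44 ± 0.41 (SE, limma adjusted p = 0.641) and the VTA 0.32 ± 0.32 (limma adjusted p = 0.815). The vBNST had -0.61 ± 0.54 (limma adjusted p = 0.632) and the mPFC -0.39 ± 0.24 (limma adjusted p = 0.442). The NAcC, the NAcSh, the CeA and the BLA had 0.29, 0.23, 0.011 and -0.13. Without 1 array the dlBNST difference was between 0.047 (without naive replicate 3) and 0.70 (without naive replicate 4), the VTA one between 0.028 (without dependent replicate 4) and 0.54 (without dependent replicate 2), and the vBNST one between -1.07 (without naive replicate 4) and -0.32 (without naive replicate 1), none past the threshold. The intervals were wide, from -0.61 to 0.63 in the CeA and from -1.80 to 0.57 in the vBNST, and none of them shows that dependent and naive rats had the same level.

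Averaged over the 8 regions, dependent minus naive was 0.020 ± 0.15 (SE) with a 95% interval of -0.28 to 0.32 (limma adjusted p = 0.949, on 92 arrays), while 13.1% of 8762 genes were called in the same comparison. The differences between regions in this comparison did not pass the test either, with F = 0.73 on 7 degrees of freedom (limma adjusted p = 0.838, with 2.28% of genes called). Both tests took the arrays as independent, although the regions share their rats. The spread between arrays was lower in dependent rats, with a pooled SD of 0.41 in dependent, 0.66 in non-dependent and 0.73 in naive rats. The dependent SD was smaller than the naive SD in 5 of 8 regions and larger in the NAcSh, the VTA and the mPFC, and this spread was not tested.

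The other GABA-A receptor subunits analysed did not share the pattern. Of the other subunit genes, 15 were measured by a probe set of their own and are described here. The alpha subunits Gabra2 and Gabra5, the beta subunits Gabrb1 and Gabrb2 and the delta subunit Gabrd had a mean above 4 in 8 of 8 regions, and Gabre, the epsilon subunit, in the dlBNST and vBNST. Gabra3, Gabra4, Gabra6, Gabrg3, Gabrp, Gabrq and Gabrr1, Gabrr2 and Gabrr3 did not reach it in any region, so nothing is said of their changes. The non-dependent mean was the lowest of the conditions in 5 of 8 regions for Gabrb1, 4 for Gabra5, 3 for Gabrb2, and 1 each for Gabra2 and Gabrd. Their mean differences over the regions, non-dependent minus naive, were between -0.19 (Gabrb2) and 0.23 (Gabra2), beside -0.71 for Gabrg1.

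**Figure D3:**
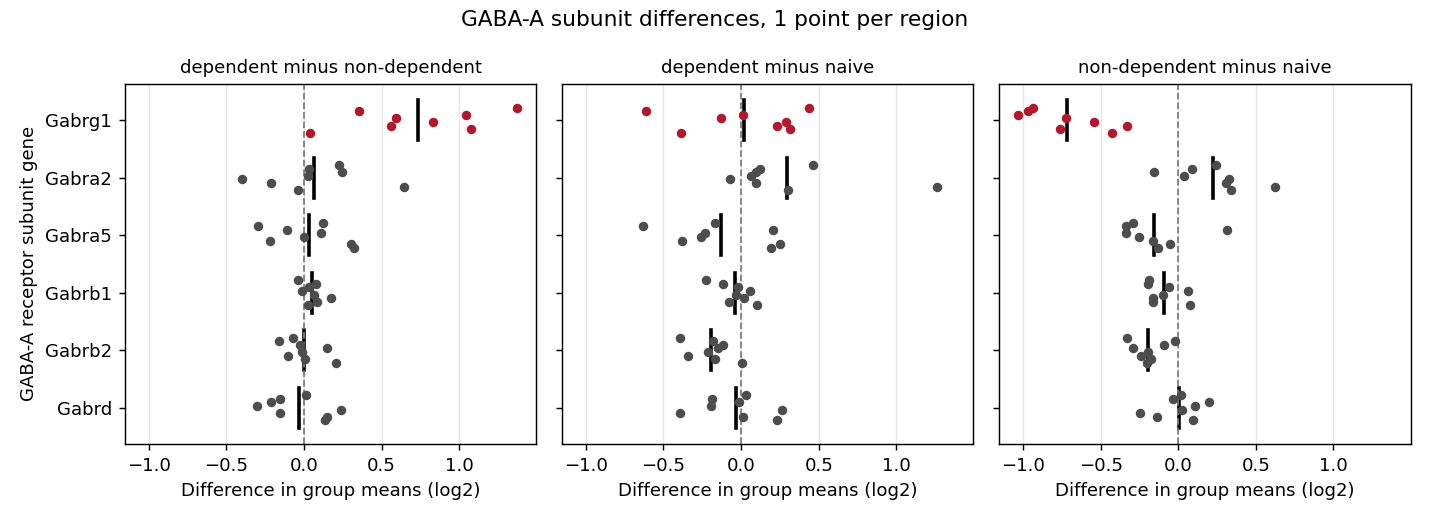
Differences between condition means (log2, horizontal axis) for Gabrg1 and the 5 other GABA-A receptor subunit genes above the signal limit in 8 of 8 regions, with 1 point per region and a bar at the mean of the 8. Gabrg1, in red, was chosen for its positions in the outer panels, where its means are 0.73 and -0.71, while the other subunits' means in those panels lie between -0.19 and 0.23.

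No subunit passed the adjusted test in any of the 24 comparisons. Over the regions, 5 of 42 tests between dependent and naive rats had an unadjusted p under 0.05 (11.9%, with 11.3% over all genes), as did 1 of 42 between dependent and non-dependent rats (2.38%, with 7.17%) and 5 of 42 between non-dependent and naive rats (11.9%, with 7.84%). Gabra2 and Gabra5 had the smallest p-values. Gabra2, which adjoins Gabrg1 on the chromosome, was 8.49, 8.24, 7.39 and 7.28 in dependent VTA, 6.96, 6.89 and 7.77 in non-dependent VTA and 7.52, 6.17, 6.55 and 6.11 in naive VTA. The dependent and naive VTA arrays overlapped in 1 naive array, and the difference was 1.26 ± 0.36 (SE, limma adjusted p = 0.527, unadjusted p = 0.00481).

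Gabra2 in the dlBNST was 10.87, 10.77, 11.17 and 10.82 in dependent rats, 10.78, 10.66, 10.70 and 10.61 in non-dependent rats and 10.29, 10.36, 10.62 and 10.52 in naive rats. Every dependent array was above every naive array, which held for 3.08% of genes in the dlBNST, and the difference was 0.46 ± 0.11 (SE, limma adjusted p = 0.110). Gabra2 thus had its mean highest in dependent rats and lowest in naive rats in both regions, an order unlike that of Gabrg1, though neither difference passed adjustment. Gabra5, an alpha subunit of mainly extrasynaptic receptors, was 10.64, 10.83 and 10.58 in dependent vBNST, 10.87, 10.84, 11.03 and 11.18 in non-dependent vBNST and 11.23, 11.48, 11.51 and 11.04 in naive vBNST. Every dependent array was below every naive array, as for 8.08% of genes in the vBNST, with a difference of -0.63 ± 0.14 (SE, limma adjusted p = 0.0839).

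**Figure D4:**
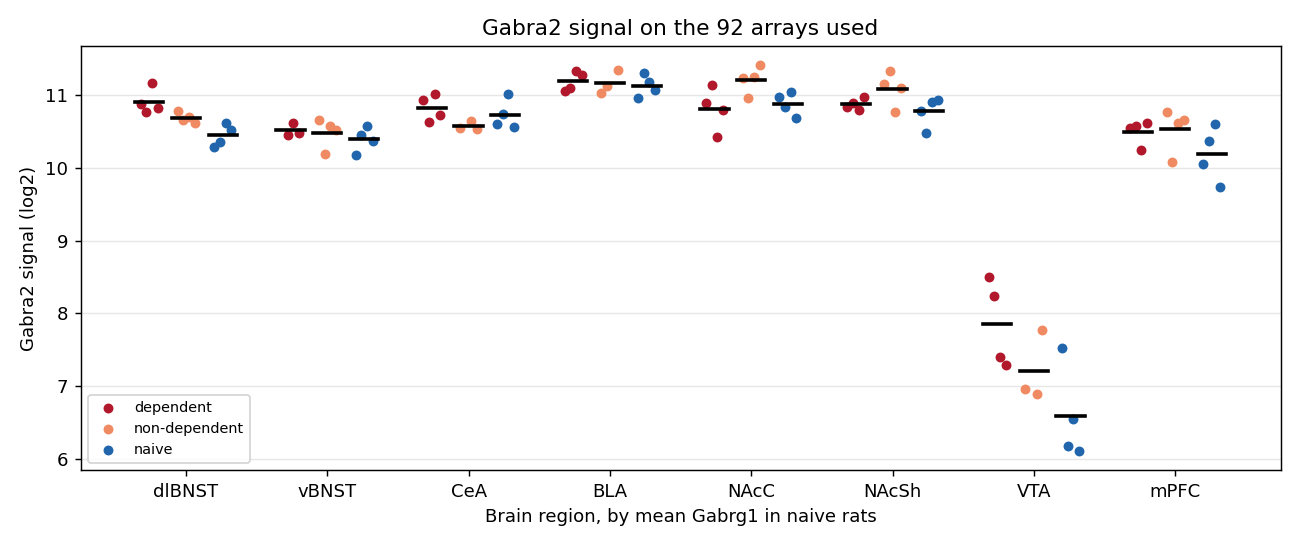
Gabra2 signal (log2) on the 92 arrays used, by brain region in the order of Gabrg1's naive means, with dependent, non-dependent and naive rats from left to right. Points are single arrays and bars are means: Gabra2 is dimmest in the VTA, with 7.85 in dependent and 6.59 in naive rats, and in the dlBNST the 4 dependent arrays lie above the 4 naive ones.

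The genes around the receptor were also short of the adjusted threshold. Of the genes for GABA synthesis, transport and breakdown, 7 of 9 were measured, and in 40 tests between dependent and naive rats 2 were higher and 5 lower at an unadjusted p under 0.05 (17.5%, with 11.3% over all genes). Slc32a1, which loads GABA into vesicles, was 10.31 in dependent and 10.81 in naive dlBNST (limma adjusted p = 0.193). Of the genes for receptor clustering and trafficking, 15 of 18 were measured, and in 112 such tests 3 were higher and 14 lower (15.2%). Among these, Gabarapl1, a relative of the GABA-A receptor-associated protein, was 10.57 in dependent and 10.99 in naive dlBNST (limma adjusted p = 0.0860), and Zdhhc3, an enzyme that attaches palmitate to proteins, was 9.18 in dependent and 9.83 in naive VTA (limma adjusted p = 0.340). Of the 4 genes for chloride transporters and GABA-B receptors, 1 was higher and 1 lower in 32 tests (6.25%). Of 9 neurosteroid and corticosteroid genes, 7 were measured, with 2 higher and 1 lower in 30 tests (10%). None of these genes passed adjustment in the comparison of non-dependent with naive rats either, in which 0.0779% of all genes were called in the mPFC and 0 in the other 7 regions. Nlgn2, a postsynaptic organizer of inhibitory synapses, came nearest, at 5.30 in non-dependent and 4.57 in naive mPFC (limma adjusted p = 0.0658).

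Nr3c1, the gene of the glucocorticoid receptor, did not share the pattern of Gabrg1. Its dependent minus naive differences lay between -0.093 and 0.10, and its non-dependent mean was lowest in 2 of 8 regions. Its deviations from the region means had a correlation of 0.025 with those of Gabrg1 over the 92 arrays. Across the 8 naive region means the correlation was 0.79, but 1385 of 8761 genes were above 0.6 there, since the points share the same 8 tissues.

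Within regions, the genes most like Gabrg1 over the 92 arrays were Tet1 (r = 0.54), Fbln2 (0.52), Sash1 (0.49), Cntn3 (0.46) and Rras2 (0.46). The 95th percentile of all 8761 genes was 0.23. The condition difference that chose Gabrg1 enters these values, and with deviations taken within region and condition they were 0.48, 0.43, 0.41, 0.35 and 0.46. Tet1 encodes an enzyme that oxidizes methylated cytosine, and Fbln2 an extracellular matrix protein. Tet1 averaged 4.38 in dependent, 4.23 in non-dependent and 4.36 in naive rats, close to the limit of 4. Across the 8 naive region means, the most alike were Igsf1 (0.98), Mcfd2 (0.97), Patl1 (0.97), Invs (0.97) and Uhrf2 (0.97). Igsf1, a membrane protein of the immunoglobulin family, was 11.4 in the naive dlBNST and 9.10 in the naive mPFC. The 2 measures named different genes, and Igsf1 had a correlation of -0.010 with Gabrg1 within regions.

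Measures of the arrays and of cell types were set beside Gabrg1. Over the 92 arrays, its deviations within region had a correlation of -0.052 with the hybridization controls and -0.24 with the median signal of the array. It was 0.065 with the mean of the astrocyte markers, -0.065 with that of oligodendrocyte markers and -0.062 with that of Gad1 and Gad2. Single astrocyte markers differed, from -0.14 (Agt) to 0.37 (Slc4a4). With deviations taken within region and condition they ran from -0.22 (Agt) to 0.48 (Glul). For the 3' minus 5' signal the correlation within region was 0.12 with Gapdh and -0.080 with beta-actin. The beta-actin difference averaged 7.93 in dependent, 7.99 in non-dependent and 7.49 in naive rats. The mean of the astrocyte markers over the regions was 10.6 in dependent, 10.6 in non-dependent and 10.7 in naive rats. The hybridization controls averaged 9.46 in dependent, 9.71 in non-dependent and 9.48 in naive rats, and were highest in non-dependent rats in 5 of 8 regions.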

How the data were processed

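The deposited values are log2 signals that the authors computed with GCRMA (2.36.0, in R 3.03 per the labels; the paper names an earlier R), a method that corrects background and normalizes all arrays together. They cover 31099 probe sets and were not scaled again. Probe sets were named from the platform annotation: 20832 had 1 gene, 436 several and 9831 none. Each gene was represented by its brightest probe set over 92 arrays, and genes with a mean above 4 in a region were tested, 8445 to 8989 per region. Differences were fitted with limma 3.58.1 in R 4.3.3, 1 fit per region with 3 conditions, and over 24 region and condition means for the comparisons across regions, with Benjamini-Hochberg adjustment over all genes at 0.05. The scripts were tested on simulated data. The number of arrays, and of the rats they share, limits the precision, and p-values measure the spread between arrays. The gene, its lists (14) and the arrays left out were chosen with earlier results of these data known. Genes named are the GABA-A subunits, Nr3c1, the 5 most like Gabrg1 by each measure, and list members with the smallest unadjusted p. Slc4a4 and Glul are named as the astrocyte markers most like Gabrg1. Promoters came from RefSeq (GRCr8). Alternatives were other arrays, scalings, filters and blocks, each array left out, array weights, and a random block, the last 2 chosen after seeing the data. Figures were drawn with matplotlib 3.10.9.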

Additional observations from a re-analysis of the deposited data

Results flagged for a closer look

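In the NAcC of non-dependent rats, 1 of 4 arrays had 6.86 for Gabrg1 and the others 5.01 to 5.19; the gap was 0.904 of the range of the group. In the vBNST of non-dependent rats, 1 array had 8.23 and the others 6.20 to 6.51, a gap of 0.848 of the range. Both gaps are past the 95% critical value of Dixon's test, which 2 of 20 groups of 4 passed, where chance gives about 1 in 20. Both arrays carry replicate number 2. The values are given as a description, since low non-dependent means chose the gene and leaving out a high array widens that difference. Without them, non-dependent minus naive was -0.98 in the NAcC, against -0.54 with all arrays used, and -1.44 in the vBNST, against -0.97.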

How the results depend on the processing

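The differences between dependent and naive rats kept their direction and stayed short of the threshold with all 96 arrays, quantile normalization, median scaling, no filter, the mean of probe sets, array weights, a random block of same-numbered arrays (for the values across regions) and 1 fit over 92 arrays. A filter above 6 kept Gabrg1 in the CeA, the dlBNST and the vBNST, with no call. Leaving out a replicate turned the sign in the NAcC (range -0.051 to 0.73), the NAcSh (-0.0045 to 0.45), the CeA (-0.35 to 0.19), the BLA (-0.31 to 0.10) and the mean over regions (-0.12 to 0.15), each without passing the threshold (adjusted p from 0.560). Over the 24 comparisons, 11 tests of GABA-A subunits had an unadjusted p under 0.05, and 20 did with no filter on dim genes. More subunits were tested without the filter, and the share over all genes there is not given, so nothing is read from the rise. Calls past adjustment among genes of the 5 GABA-related lists, counted over the 24 comparisons, were 0 with all arrays used. With 1 array left out they were between 0 and 6. There were 6 without dependent replicate 3 of the mPFC and 2 without dependent replicate 3 of the VTA. There was 1 without naive replicate 2 or dependent replicate 2 of the mPFC. The share of all genes called in those fits is not given, so nothing is read from these counts. Between the CeA and the BLA the call was lost with no filter on dim genes, at 1.29 (adjusted p = 0.0501), and without a replicate the range was 0.95 to 1.60. With the other conditions added to the naive arrays, the step between the BLA and the NAcC reversed to -0.12, and those between the NAcSh and the VTA (0.85) and the VTA and the mPFC (0.95) passed. Without a replicate the steps BLA to NAcC (-0.34 to 0.53), NAcC to NAcSh (-0.26 to 0.46) and dlBNST to vBNST (-0.50 to 0.58) changed sign. The cause of these changes was not tested. Same-numbered arrays had a median correlation of 0.012 across the conditions of a region, against 0.0042 for different numbers. Across the regions of a condition it was -0.0036, against -0.018 for different numbers. Such values cannot show whether same-numbered arrays came from the same rat. With the replicate block, dependent minus naive was 0.028 over the regions (adjusted p = 0.918) and no call changed. With all 96 arrays the likeness to Gabrg1 within regions was 0.49 for Tet1 and 0.49 for Fbln2, still the highest, and 0.37 for Rras2.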
